A study of Homo sapiens with 8 samples.

Results

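KTN1, PPP1R12A, SIK3 and SRD5A1 are 4 genes of which an exon was included less often after CHERP depletion, and they are described here by every splicing event and by their abundance. They are 4 of the 12047 genes with an event in the splicing tables. They had 61 of the 89379 whole-cell events and 31 of the 43559 cytoplasmic events, and 28 of these events were in both fractions. The cells were U2OS, which derive from a human osteosarcoma. They received 20 nM of siRNA against EGFP, the control, or of CHERP#2 siRNA, 1 of the siRNAs against CHERP, and RNA was taken after 48 h. Poly(A)-selected stranded libraries were made from whole cells and from the cytoplasmic supernatant of an NP-40 lysate, as 2 libraries per siRNA in each fraction, 8 in all. The methods call the libraries of a group biological replicates, and a single siRNA sequence stands for CHERP depletion. RNA was measured in bulk, so a form present in fewer cells and less of it per cell cannot be told apart.

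A cassette, or skipped, exon is an exon that is either joined to both neighbouring exons or left out, so that the neighbours are joined directly. The choice depends on recognition of the 3′ splice site before the exon and the 5′ splice site after it, and U2 snRNP, with which the CHERP protein is associated, acts at the branch point near the 3′ splice site. Skipping of an exon whose length is a multiple of 3 keeps the reading frame, whereas inclusion of an exon with an early stop codon can send the RNA to nonsense-mediated decay. KTN1 encodes kinectin, a membrane protein of the endoplasmic reticulum that binds kinesin. PPP1R12A encodes the subunit that brings protein phosphatase 1 to myosin. SIK3 is a salt-inducible kinase that is switched on by LKB1 and phosphorylates CRTC coactivators and class IIa histone deacetylases. SRD5A1 is a steroid 5-alpha reductase, an enzyme that makes dihydrotestosterone from testosterone.

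The genes were chosen by the lower inclusion of an exon with CHERP siRNA. For each gene, 1 lead exon was selected on the whole-cell values, as the skipped exon with lower inclusion and the smallest p. The whole-cell values of these exons therefore describe the choice and are given with no test. The lead exons are shown first, because their splice sites and reading frames differ. All coordinates are hg19, and the sequences were read from GRCh37, which is the same assembly. Exonic bases are in capitals and intronic bases in lower case, 5′ to 3′ on the strand of the gene.

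The lead exon of KTN1 (ENSG00000126777.13) was chr14:56139890-56139973 on the plus strand, an 84-nt coding exon. It is exon 40 of 44 in the MANE Select transcript, KTN1-205, and holds 28 codons.
KTN1 exon 40: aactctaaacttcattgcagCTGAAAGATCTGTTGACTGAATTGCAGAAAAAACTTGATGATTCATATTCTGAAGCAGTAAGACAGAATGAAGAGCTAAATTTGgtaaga
The lead exon of PPP1R12A (ENSG00000058272.11) was chr12:80199946-80200113 on the minus strand, a 168-nt coding exon of 56 codons. It is exon 13 of 25 in the MANE Select transcript, PPP1R12A-203. A shorter version of 132 nt, chr12:80199946-80200077, uses the same 5′ splice site and is found in 1 annotated transcript, and the last 132 capitals below are that version.
PPP1R12A exon 13: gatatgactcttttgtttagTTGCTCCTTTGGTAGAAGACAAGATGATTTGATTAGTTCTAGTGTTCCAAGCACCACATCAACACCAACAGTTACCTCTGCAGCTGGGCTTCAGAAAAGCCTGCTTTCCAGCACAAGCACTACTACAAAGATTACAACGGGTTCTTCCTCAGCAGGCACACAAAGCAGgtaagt
The lead exon of SIK3 (ENSG00000160584.11) was chr11:116746582-116746725 on the minus strand, a 144-nt coding exon of 48 codons. It is exon 9 of 25 in the MANE Select transcript, SIK3-204, and lies in 4 annotated transcripts.
SIK3 exon 9: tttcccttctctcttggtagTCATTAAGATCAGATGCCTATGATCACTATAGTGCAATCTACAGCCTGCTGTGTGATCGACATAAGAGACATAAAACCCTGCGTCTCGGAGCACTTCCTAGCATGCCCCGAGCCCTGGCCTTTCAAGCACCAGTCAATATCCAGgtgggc
The lead exon of SRD5A1 (ENSG00000145545.7) was chr5:6644921-6645422 on the plus strand, 502 nt long. It is not an exon of the 5-exon MANE Select transcript SRD5A1-201, and in the annotation it is exon 2 of SRD5A1-203 alone, a transcript of the nonsense-mediated decay class. In that transcript 85 nt of the exon are coding, after which a TGA stop codon follows at chr5:6645006-6645008. The line shows the intronic bases before the exon and the exon up to and including that stop codon.
SRD5A1 exon 2 of SRD5A1-203, first part: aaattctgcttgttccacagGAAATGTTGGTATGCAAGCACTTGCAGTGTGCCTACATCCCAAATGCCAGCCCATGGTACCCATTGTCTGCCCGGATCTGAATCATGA

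The lead exons of KTN1, PPP1R12A and SIK3 are thus in frame, and that of SRD5A1 is not, with a length of 1 base more than a multiple of 3. Each exon was set beside 48505 distinct skipped exons of the whole-cell table. Splice sites were scored by summing, over the positions of the site, the log2 of the base's frequency in these exons over 0.25, so that a higher score is closer to the usual site. These features are descriptions and were not tested.

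The exon of KTN1 had a 3′ splice site score of 5.99, at the 19.3rd percentile, where the median of all exons was 9.35. It follows an intron of 159 nt, at the 6th percentile, and its GC content of 33.3% was at the 4.1st percentile. PPP1R12A exon 13 had a 3′ splice site score of 6.89, at the 26th percentile, and its shorter version had -2.47, at the 0.558th. Their common 5′ splice site scored 12.8, at the 98.8th percentile, where the median was 7.99. SIK3 exon 9 had scores near the median at both ends, with 9.75 for the 3′ splice site and 7.22 for the 5′ splice site. It lies between short introns of 243 nt and 414 nt, at the 9.64th and 15.9th percentiles. The exon of SRD5A1 stood apart by its length, at the 98th percentile, and had scores of 10.1 for the 3′ and 6.57 for the 5′ splice site. Across these exons the 3′ splice site score was below the median in KTN1 and PPP1R12A and slightly above it in SIK3 and SRD5A1.

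Summed over all events, the reads per library were 29409956 to 35664568 in whole cells and 5370756 to 6580099 in the cytoplasm. A read that serves several events counts in each of them, in these sums and in the sums per gene below. Events of CHERP itself, the targeted gene, had 103 and 77 reads in whole cells with EGFP siRNA, against 3 and 10 with CHERP siRNA, and in the cytoplasm they had 31 and 21 against 3 and 4. Of 7 markers of the U2OS line 4 had events, with VIM at 57402 to 80880, FN1 at 11893 to 16859, CD44 at 6337 to 19586 and RUNX2 at 0 to 18 reads per whole-cell library. Of 7 markers of epithelial, blood and endothelial cells only CDH1 had an event, with 1 to 22 reads per whole-cell library. Genes with no alternative event are not listed in these tables, so the other markers were not measured.

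Inclusion levels run from 0 to 1 and give the part taken by the inclusion form once reads are divided by effective length, and differences are CHERP minus EGFP siRNA. In whole cells the lead exons had lower levels in both CHERP libraries than in both EGFP libraries, where the choice required a lower mean level and the smallest p. KTN1 exon 40 was at 0.525 and 0.534 with EGFP siRNA and at 0.319 and 0.315 with CHERP siRNA, from a mean of 848 reads per library. The libraries of a group lay close together, and the inclusion reads of 517 and 567 against 379 and 342 moved against skipping reads of 295 and 313 against 510 and 469. PPP1R12A exon 13 was at 0.889 and 0.97 with EGFP siRNA and at 0.627 and 0.485 with CHERP siRNA, from a mean of 106 reads. SIK3 exon 9 was at 0.816 and 0.965 with EGFP siRNA and at 0.508 and 0.633 with CHERP siRNA. The exon of SRD5A1 was at 0.667 and 1 with EGFP siRNA and at 0.256 and 0.0472 with CHERP siRNA. Its differences between the libraries of a group were the widest of these exons, and they rested on a mean of 41.2 reads. The second EGFP library had 0 skipping reads of 37, which allows a share of up to 8.11% of the reads for counting error only.

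**Figure D1:**
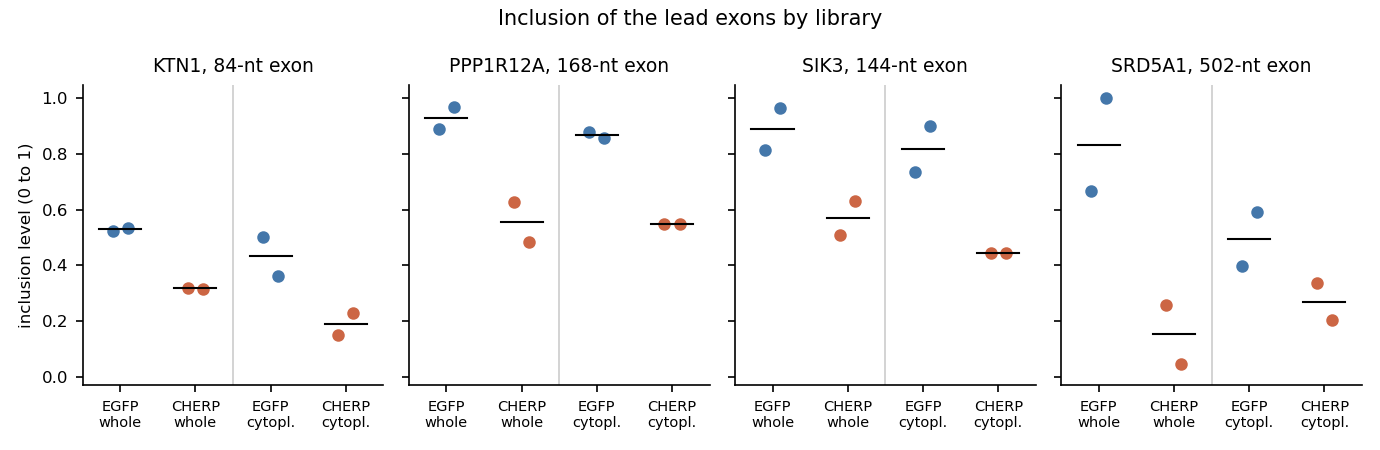
Inclusion level (y axis, 0 to 1) of the lead exon of each gene in each of the 8 libraries, by siRNA and fraction (x axis), with points for libraries and lines for group means. In every panel both CHERP points lie below both EGFP points of the same fraction, and KTN1 falls in whole cells from a mean of 0.529 to 0.317.

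The cytoplasmic libraries were not used to pick the lead exon within a gene. The 4 genes themselves were chosen with earlier results known, which may include cytoplasmic ones. The p-values given here are therefore not independent of that choice. Inclusion was tested with a quasi-binomial test, whose dispersion was moderated with limma over all events. Its p was adjusted over all 31924 skipped-exon events. The lead exons had lower levels in both CHERP libraries than in both EGFP libraries here too, and 0 of the 4 passed this test at an adjusted p of 0.05. The test called 0 of the 31924 events of all genes and made no call on simulated data. Its lack of calls therefore carries little information. KTN1 exon 40 was at 0.503 and 0.362 with EGFP siRNA and at 0.148 and 0.228 with CHERP siRNA, a difference of -0.245 with means of 0.433 ± 0.0996 and 0.188 ± 0.0567 (SD, n = 2). The change in the ln odds of inclusion was -1.17 ± 0.31 (SE), with an unadjusted p of 0.0216 and an adjusted p of 0.62 in this limma-moderated test. The result depends on which events set the dispersion. In a version chosen after the designed test had given no call for any gene, the dispersion was set only by events whose rarer form had 10 or more reads in each group. In that limma-moderated version KTN1 exon 40 had an adjusted p of 0.000559, whereas limma on the log2 odds gave 0.65. Over all settings tried with every library its adjusted p ranged from 0.000559 to 0.65 with limma moderation.

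The other lead exons did not pass in either version of the test. SIK3 exon 9 was at 0.737 and 0.901 with EGFP siRNA and at 0.444 in both CHERP libraries, which had the same 19 inclusion and 8 skipping reads. The difference of -0.375 had a change in ln odds of -1.61 ± 0.57 (SE), with adjusted p of 0.62 in the limma-moderated test as designed and 0.193 in the other version. PPP1R12A exon 13 was at 0.879 and 0.858 with EGFP siRNA and at 0.548 in both CHERP libraries. This rested on 24, 20, 4 and 4 inclusion reads, with 1 skipping read in each library, and the change in ln odds of -1.66 ± 0.97 (SE) had adjusted p of 0.62 and 0.557 in these limma-moderated tests. The exon of SRD5A1 was at 0.398 and 0.59 against 0.337 and 0.202, with a change in ln odds of -1.10 ± 0.48 (SE) and adjusted p of 0.62 and 0.503 by the same limma-moderated tests. At 14 to 29 reads per library these exons had few reads, and a p that misses the threshold does not show that their levels were alike.

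**Figure D2:**
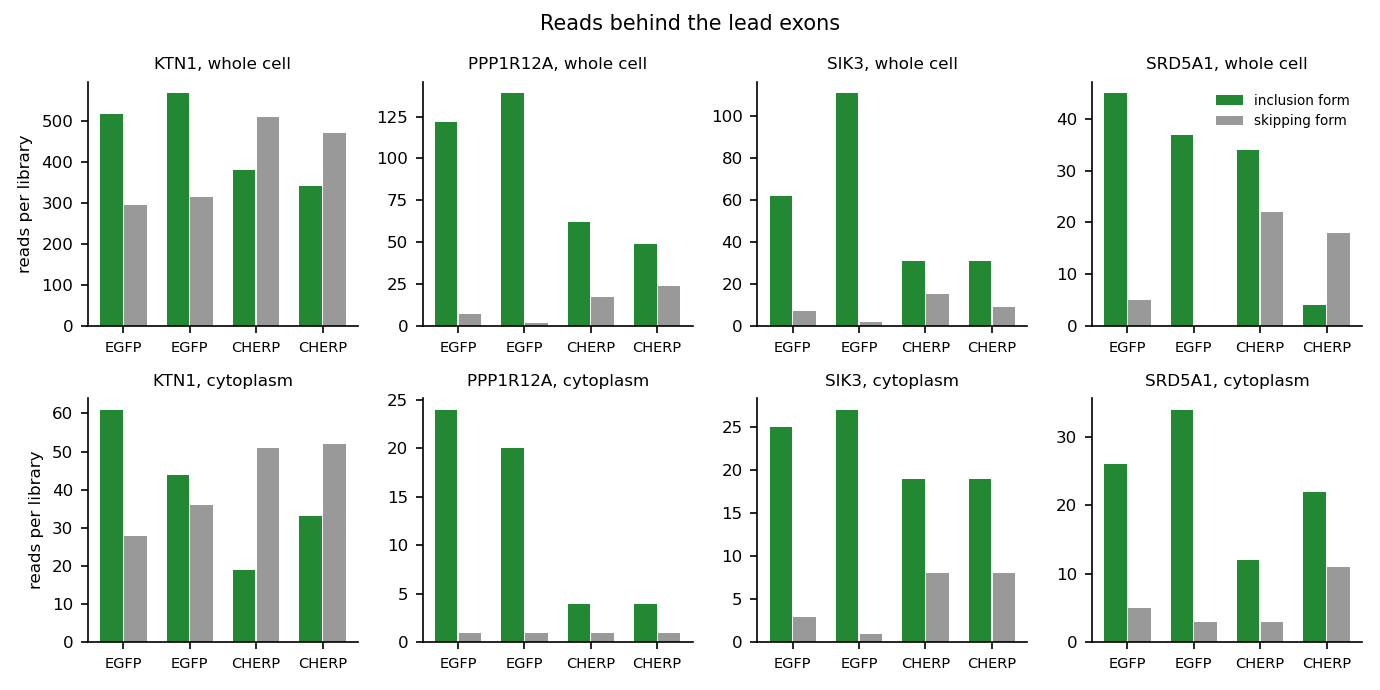
Reads of the inclusion form (green) and of the skipping form (grey) of each lead exon (y axis, reads per library, with a scale of its own in each panel) in the 4 libraries of each fraction (x axis). The skipping form of KTN1 exon 40 rises above the inclusion form in all 4 CHERP libraries, and in the cytoplasm the skipping form of the PPP1R12A exon has 1 read in every library.

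The 2 fractions were read at different lengths, with effective lengths of the skipping form of 144 in whole cells and 73 in the cytoplasm, so their levels are set side by side with no test between them. The mean level of KTN1 exon 40 with EGFP siRNA was 0.529 in whole cells and 0.433 in the cytoplasm, and with CHERP siRNA it was 0.317 and 0.188. For SRD5A1 the EGFP mean was 0.834 in whole cells and 0.494 in the cytoplasm, whereas the CHERP mean was lower in whole cells, at 0.152 against 0.27. For PPP1R12A the EGFP means were 0.93 in whole cells and 0.869 in the cytoplasm, and the CHERP means were close, at 0.556 and 0.548. For SIK3 the EGFP means were 0.891 and 0.819, and the CHERP means were 0.57 and 0.444.

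Many skipped-exon events of the 4 genes were near full inclusion with either siRNA. In whole cells 27 of the 46 events had mean levels above 0.9 in both groups, and in the cytoplasm this held for 11 of 25. At an adjusted p of 0.05 the limma-moderated quasi-binomial test as designed called 0 of these events in either fraction, and 0.00% of all tested events, with 13 of the 46 whole-cell and 2 of the 25 cytoplasmic events at an unadjusted p under 0.05. Over all genes this held for 3623 of 63977 whole-cell and 732 of 31924 cytoplasmic events. With the dispersion set by events whose rarer form had 10 or more reads, 9 of the 46 whole-cell events passed, 6 lower and 3 higher, where 1.27% of all tested events passed in either direction, 0.628% lower and 0.644% higher. Since whole-cell values chose the genes, nothing is read from the whole-cell counts. In the cytoplasm 1 of 25 events passed in that version, KTN1 exon 40, where 1.04% of all tested events did and 0.605% passed with lower inclusion. With limma on the log2 odds 0 passed in either fraction. The libraries of the groups did not overlap in 8 of the 25 cytoplasmic events, 5 of them lower, beside 23.7% of all events in either direction and 13.0% lower. The 5 lower events were the 4 lead exons and the 132-nt version of the PPP1R12A lead exon. The median change over the 25 events was -0.0224, beside -0.000329 over all skipped-exon events. The genes were chosen for lower inclusion of such exons, so nothing is read from this count or this median either.

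**Figure D3:**
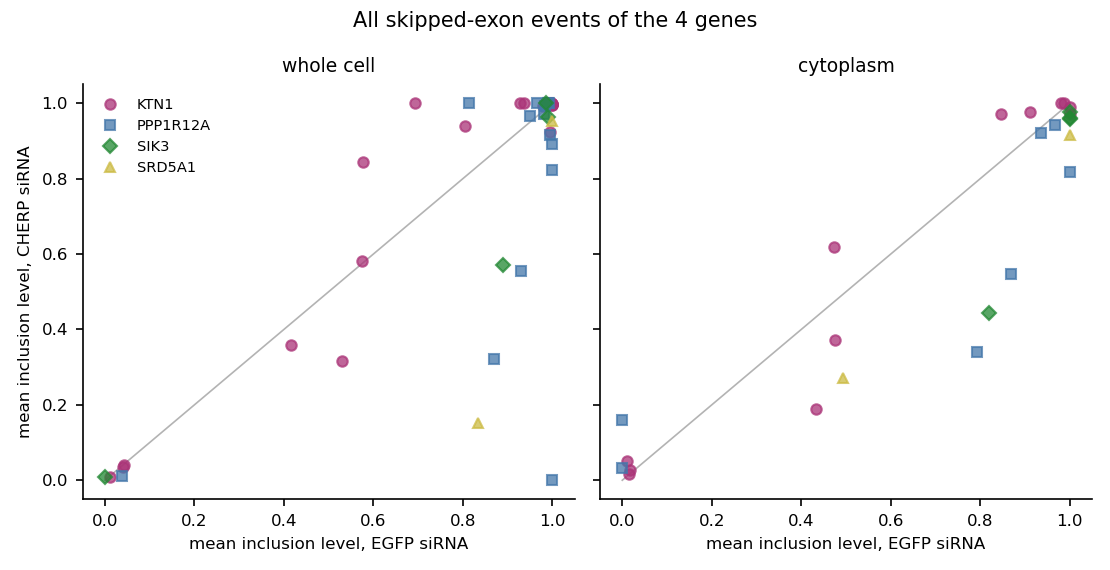
Mean inclusion level with EGFP siRNA (x axis) against that with CHERP siRNA (y axis) for each skipped-exon event of the 4 genes, in whole cells (left) and in the cytoplasm (right), with a line of equality. Most points lie near the corners, the lead exons lie below the line, and a few KTN1 events lie above it, while the PPP1R12A point at the lower right in whole cells had a mean of 1 read per library.

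KTN1 had 26 whole-cell skipped-exon events over 21 exons, and 10 had libraries that did not overlap, 3 lower and 7 higher, where over all genes 25.9% did not overlap in either direction and 13.4% were lower. Beside exon 40, exon 24 (chr14:56117287-56117355, 69 nt, coding) had lower values in whole cells, with 0.989 and 1 against 0.902 and 0.948. Its skipping reads were 4 and 0 with EGFP siRNA, against 47 and 20 with CHERP siRNA. This exon was not among the cytoplasmic events. The 7 events with higher values tested exons 30, 32, 33 and 34. Exon 32 was at 0.741 and 0.648 and then at 1 in both CHERP libraries in one event, from a mean of 30.5 reads, and at 0.9 and 0.973 and then at 1 in both in the other. Exon 30 was at 0.983 and 0.993 and then at 1 in both. Exon 33 (chr14:56130673-56130759, 87 nt) and exon 34 (chr14:56133959-56134048, 90 nt) had the most reads of the skipping form and are shown because their values moved against those of exon 40.
KTN1 exon 33: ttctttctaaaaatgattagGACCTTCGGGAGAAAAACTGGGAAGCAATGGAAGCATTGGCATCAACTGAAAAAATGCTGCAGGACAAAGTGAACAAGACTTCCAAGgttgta
KTN1 exon 34: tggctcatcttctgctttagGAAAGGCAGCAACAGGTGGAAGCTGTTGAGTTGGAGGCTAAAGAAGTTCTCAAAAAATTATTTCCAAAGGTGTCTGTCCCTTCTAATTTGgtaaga
Both are coding and in frame. Exon 33 had low scores at both splice sites, 2.75 for the 3′ site at the 5.31st percentile and 2.17 for the 5′ site at the 1.59th. Exon 34 had scores near the median, 9.15 and 7.9, and its last 3 bases with the first 6 of the intron are those of exon 40, so that the 5′ scores of these exons are the same.

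When read against direct joining of exon 32 to exon 35, exon 33 was at 0.608 and 0.546 with EGFP siRNA and at 0.865 and 0.824 with CHERP siRNA in whole cells. Exon 34 against the same junction was at 0.838 and 0.77 and then at 0.951 and 0.928. These events share 1 skipping form, whose reads were 43 and 69 with EGFP siRNA, against 13 and 16 with CHERP siRNA. When exon 33 was instead read against joining of exon 32 to exon 34, its whole-cell levels were 0.597 and 0.551 with EGFP siRNA, against 0.565 and 0.602 with CHERP siRNA, and the groups overlapped. The higher values thus came with fewer reads that leave out exons 33 and 34 together, and not with fewer reads that leave out exon 33 alone, which were 107 and 142 against 150 and 119. Junctions that leave out still more exons moved the same way. Joining of exon 30 to exon 35 had 6 and 17 reads with EGFP siRNA and 0 in both CHERP libraries, and exon 34 against it was at 0.964 and 0.894 and then at 1 in both.

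In the cytoplasm, exon 33 against the junction of exon 32 to exon 35 was at 0.785 and 0.909 with EGFP siRNA and at 1 and 0.947 with CHERP siRNA. The skipping reads were 4 and 1 against 0 and 1, and the adjusted p was 0.62 in the limma-moderated quasi-binomial test. Against the junction of exon 32 to exon 34 it was at 0.522 and 0.427 and then at 0.553 and 0.687, with the same adjusted p of 0.62 by the limma-moderated test. The groups did not overlap in either event, both higher with CHERP siRNA. Exon 34 against the junction of exon 32 to exon 35 overlapped between the groups, with 0.862 and 0.961 against 1 and 0.954.

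**Figure D4:**
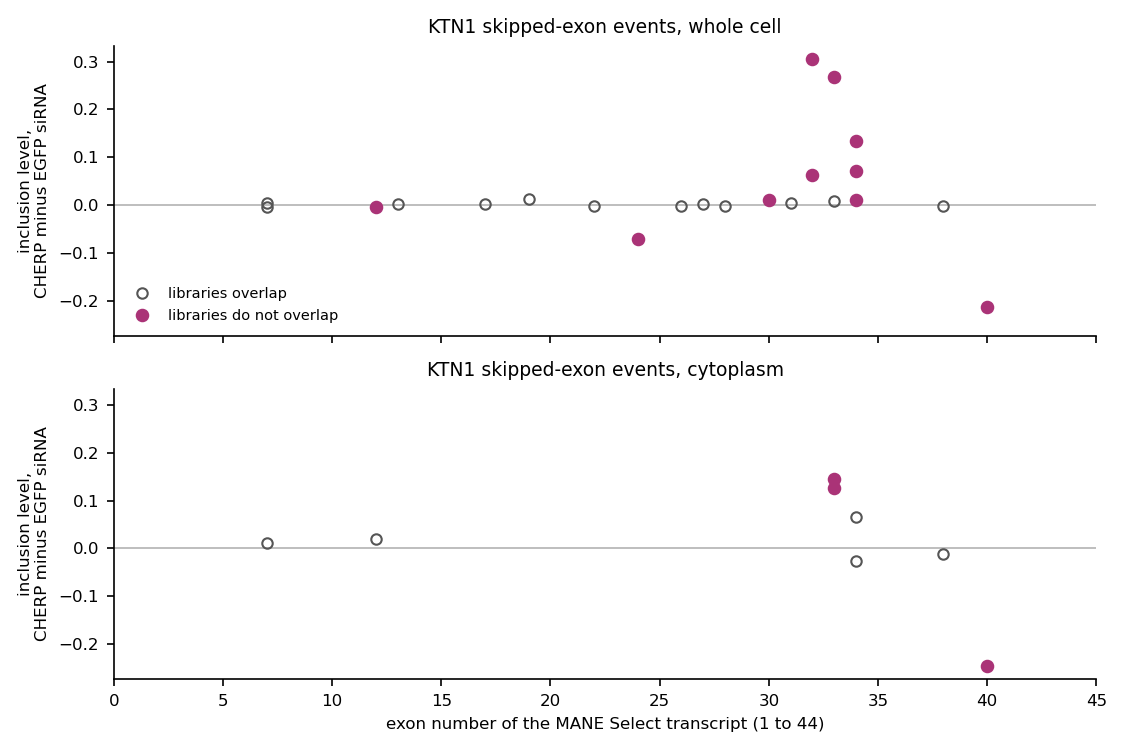
Difference in mean inclusion level, CHERP minus EGFP siRNA (y axis), of each KTN1 skipped-exon event whose exon belongs to the MANE Select transcript, by the number of that exon (x axis), in whole cells (top) and in the cytoplasm (bottom), with filled points where the libraries of the groups do not overlap. Points of exons 32 to 34 lie above 0 and those of exons 24 and 40 lie lowest in whole cells, and exon 33 above and exon 40 below in the cytoplasm.

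KTN1 exons outside the MANE Select transcript were rarely included with either siRNA, except the 124-nt exon at chr14:56068475-56068598. That exon was at 0.385 and 0.446 against 0.212 and 0.505 in whole cells, with overlapping groups. The 89-nt exon at chr14:56118005-56118093, partly coding, was at 0.0095 and 0.0109 against 0.0827 and 0.017 in the cytoplasm. This rested on 1, 1, 5 and 1 inclusion reads, and in whole cells, with 20 to 36 such reads, its groups overlapped.

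PPP1R12A had 14 whole-cell skipped-exon events, and the 5 without overlap between the groups all had lower values with CHERP siRNA and all tested exon 13 or exon 14, where 25.9% of all events did not overlap in either direction and 13.4% were lower. Most of these 5 events share a skipping form with another. Both versions of exon 13 share the joining of exon 12 to exon 14, and exons 13 and 14 share the joining of exon 12 to exon 15. Only exon 14 against the joining of exon 13 to exon 15 has a skipping form of its own. The 132-nt version of exon 13 was at 0.792 and 0.949 with EGFP siRNA and at 0.434 and 0.207 with CHERP siRNA in whole cells. It shares its skipping form with the 168-nt version, with 7 and 2 skipping reads against 17 and 24, so the 2 events are not separate measurements of skipping. In the cytoplasm the 132-nt version was at 0.762 and 0.822 against 0.263 and 0.416, from a mean of 7.25 reads per library. Exon 14 (chr12:80199372-80199548, 177 nt, coding) was lower too, with whole-cell levels of 1 and 0.988 against 0.902 and 0.93 beside the 168-nt version. Against direct joining of exon 12 to exon 15 it was at 1 in both EGFP libraries and at 0.845 and 0.938 with CHERP siRNA. That junction, which leaves out exons 13 and 14, had 0 reads in each EGFP library and 6 and 2 reads in the CHERP libraries. The choice between the 3′ splice sites of exon 13 overlapped between the groups in whole cells, with the longer version at 0.983 and 0.897 against 0.94 and 1. In the cytoplasm it did not overlap, at 0.915 and 0.843 against 1 in both CHERP libraries, from 16 and 8 against 3 and 2 inclusion reads, with an adjusted p of 0.759 in the limma-moderated test as designed. In the skipped-exon events of other PPP1R12A exons with a mean of at least 20 reads the groups overlapped. The choice between 5′ splice sites at chr12:80180557-80182563 did not overlap in whole cells. Its longer form was at 0.0312 and 0.0203 with EGFP siRNA, against 0.0124 and 0.0128 with CHERP siRNA.

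SIK3 had 4 skipped-exon events in each fraction, and exon 9 stood out among them. Exon 3 (chr11:116824760-116824823, 64 nt, coding) was at 1 and 0.979 against 0.966 and 0.964 in whole cells, with at most 1 skipping read per library, and its groups overlapped in the cytoplasm. Exon 7 (chr11:116747640-116747758), near exon 9, had 1 skipping read in all 4 whole-cell libraries together. SRD5A1 had 1 further event, exon 2 of the MANE Select transcript (chr5:6651955-6652121, 167 nt, coding). It was fully included except in the second CHERP library of whole cells, at 0.906, and the first CHERP library of the cytoplasm, at 0.83. Its inclusion reads were 21 and 11 with EGFP siRNA, against 91 and 104 with CHERP siRNA in whole cells, and 14 and 11 against 32 and 34 in the cytoplasm. These reads were thus higher with CHERP siRNA in both fractions, while the inclusion reads of the 502-nt exon were 45 and 37 against 34 and 4 in whole cells and 26 and 34 against 12 and 22 in the cytoplasm.

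Events of the other types were few. The 4 genes had 15 such events in whole cells and 6 in the cytoplasm, covering alternative 5′ and 3′ splice sites, mutually exclusive exons and a retained intron. The limma-moderated quasi-binomial test as designed called 0 of them in either fraction, and 0.00% of all events of these types, and 1 in whole cells and 0 in the cytoplasm had an unadjusted p under 0.05. With the dispersion set by events whose rarer form had 10 or more reads, 1 passed in whole cells, a pair of mutually exclusive exons of KTN1, beside 0.918% of all such pairs, 0.474% in this direction. Of all alternative 3′ splice sites 0.366% passed in whole cells in that version, of alternative 5′ splice sites 0.0612% and of retained introns 2.15%. Inclusion of exon 32 (chr14:56128240-56128330, 91 nt) in place of exon 34 was at 0.0972 and 0.178 with EGFP siRNA and at 0.0372 and 0.0439 with CHERP siRNA. In the cytoplasm 0 of 6 events passed in that version too, beside 0.543% of the alternative 3′ splice sites and 0.0240% of the mutually exclusive pairs over all genes. Exon 33 of KTN1 in place of exon 34 was at 0.368 and 0.29 against 0.421 and 0.463 in the cytoplasm, with an adjusted p of 0.821 in the limma-moderated test as designed. The retained intron of KTN1, between exons 36 and 37, was at 0.0246 and 0.015 against 0.027 and 0.0357 in whole cells.

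Abundance was measured per gene as the reads of its skipped-exon and alternative splice site events divided by their effective lengths, summed, scaled between libraries and put on the log2 scale after adding 0.01. These levels depend on how many events a gene has, so they are compared between siRNAs and not between genes. The median log2 change over all genes was 0.01 in whole cells and -0.01 in the cytoplasm. Whole-cell abundance came from the libraries that chose the genes and is described with no test, except for a SIK3 difference that missed the threshold.

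PPP1R12A was lower in both fractions. In whole cells its log2 abundance was 2.85 and 3.03 with EGFP siRNA, against 2.20 and 2.25 with CHERP siRNA, a difference of -0.72. In the cytoplasm it was -0.03 and 0.01 and then -1.56 and -1.11. This difference of -1.33 ± 0.18 (SE), a 0.399-fold level, had an adjusted p of 0.00901 with limma, where 39.0% of all genes tested passed in either direction and 19.9% passed lower. SIK3 was lower in whole cells and higher in the cytoplasm, by sums over partly different events. Exon 7 and the exon at chr11:116820849-116820972 were counted only in whole cells, and exons 15 and 19 only in the cytoplasm. Its whole-cell log2 abundance was 0.32 and 0.58 against 0.03 and -0.10, and its cytoplasmic log2 abundance was -0.78 and -0.83 against -0.13 and -0.02. The whole-cell difference of -0.48 did not pass the threshold (adjusted p 0.0795 with limma). It was -0.38 without the events of exon 9 and -0.35 without the second EGFP library. The cytoplasmic rise of 0.73 ± 0.11 (SE), 1.65-fold, had an adjusted p of 0.0113 with limma. It was 0.70 with an adjusted p of 0.0545 without the second EGFP library, and 0.83 when the events of exon 9 were left out.

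SRD5A1 had 2 events and so the least precise level. Its whole-cell log2 abundance was -2.34 and -3.34 with EGFP siRNA, against -1.05 and -0.97 with CHERP siRNA, and the groups did not overlap. In the cytoplasm it was -2.42 and -2.68 against -2.26 and -1.46, a difference of 0.69 ± 0.29 (SE) with an adjusted p of 0.124 by limma. When the 502-nt exon was left out, which leaves the event of exon 2, the cytoplasmic difference was 1.33 ± 0.15 (SE), 2.52-fold, with an adjusted p of 0.00597 by limma, so the call depends on the reads of the lead exon. Without the first CHERP library the difference was 1.09, with an adjusted p of 0.0297 by limma, and without the second it was 0.30, with an adjusted p of 0.282 by limma. KTN1 abundance was close between the siRNAs. It was 5.81 and 5.90 against 5.84 and 5.77 in whole cells, with overlapping groups, and 2.65 and 2.54 against 2.27 and 2.49 in the cytoplasm. The cytoplasmic difference of -0.22 ± 0.13 (SE) had an adjusted p of 0.245 with limma. CHERP, the targeted gene, fell by 3.46 on the log2 scale in whole cells. In the cytoplasm it had a mean of 14.8 reads, under the minimum of 20, and with no such minimum it fell by 2.66 with an adjusted p of 0.0273 by limma.

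**Figure D5:**
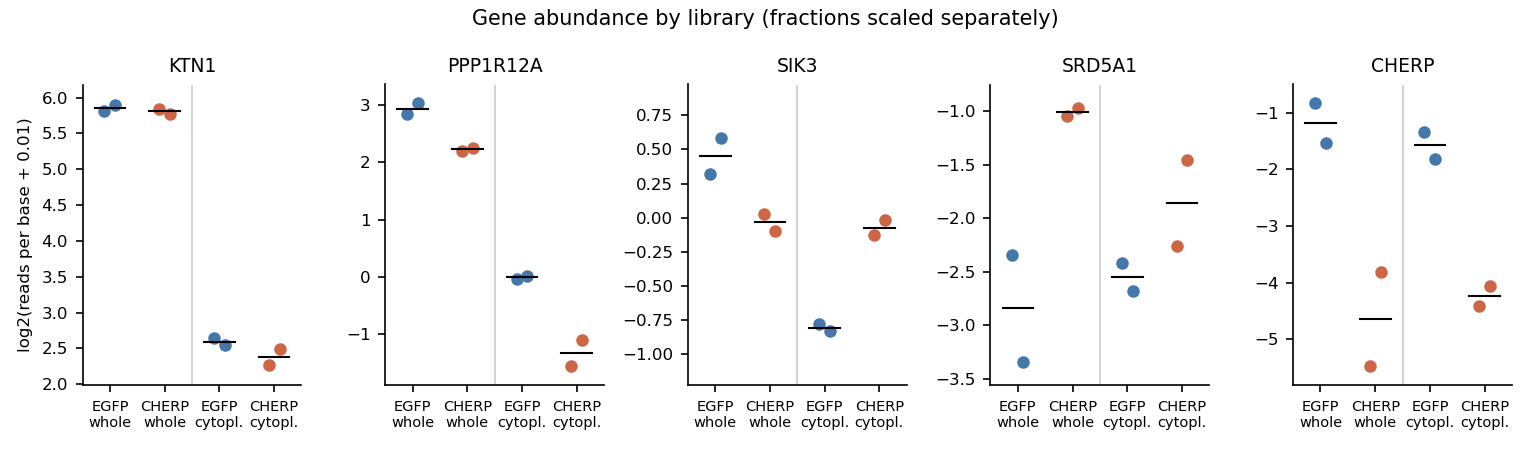
Gene abundance, log2(reads per base + 0.01) (y axis, with a scale of its own in each panel), of the 4 genes and of CHERP in each library by siRNA and fraction (x axis), with points for libraries and lines for group means. PPP1R12A is lower with CHERP siRNA in both fractions, SIK3 is lower in whole cells and higher in the cytoplasm, and KTN1 differs little.

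The deposited expression table of the cytoplasmic libraries lists 6757 genes past a threshold on the authors' posterior probability, and gives the authors' mean of normalized counts for each of 2 conditions whose siRNA its header does not name. CHERP had means of 209 in the first condition and 1685 in the second. PPP1R12A had 418 and 759, SIK3 had 809 and 569, and SRD5A1 had 344 and 99.6. KTN1 was not listed. PPP1R12A therefore lay on the same side as CHERP, and SIK3 and SRD5A1 on the other.

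Genes that work with each of the 4 were taken as lists and tested by abundance with limma. Among kinesin light and heavy chains, kinectin partners and genes that shape sheets and tubules of the endoplasmic reticulum, 4 of 13 rose and 1 fell in the cytoplasm, with a median log2 change of 0.08 beside 39.0% called in either direction over all genes. KLC1, a kinesin light chain, rose by 1.00 ± 0.15 (log2, SE; adjusted p 0.011 with limma), from 1.87 and 1.74 to 2.95 and 2.65. RHOA, a small GTPase that is a known partner of kinectin, rose by 0.69 ± 0.12 (adjusted p 0.0142 with limma). RTN3, a reticulon of the tubular endoplasmic reticulum, fell by 1.51 on the log2 scale. In whole cells 3 of 14 rose and 1 fell, where 27.0% of all genes passed, and these included RHOA, REEP5 and RTN3. KLC1 and RTN3 also had a skipped exon whose groups did not overlap in either fraction. Over all genes 25.9% of whole-cell and 23.7% of cytoplasmic skipped-exon events did not overlap. This list had 144 and 89 such events, and these exons were picked after their values were seen. Nothing is therefore read from their lack of overlap. The 131-nt exon of KLC1 (chr14:104153418-104153548) was at 0.694 and 0.682 and then at 0.309 and 0.225 in the cytoplasm, with adjusted p of 0.62 in the limma-moderated quasi-binomial test as designed and 0.0232 in the other version, and at 0.611 and 0.702 and then at 0.311 and 0.22 in whole cells. The large exon of RTN3 (chr11:63486174-63488504, 2331 nt) was at 0.0105 and 0.0176 and then at 0.056 and 0.0689 in the cytoplasm.

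Among myosin phosphatase subunits, its inhibitors and kinases and the myosins, 4 of 17 rose and 3 fell in the cytoplasm, with a median log2 change of 0.30, and 2 of 23 rose and 4 fell in whole cells. Over all genes 39.0% passed in the cytoplasm and 27.0% in whole cells, so both counts were near the background. MYL12A, a myosin regulatory light chain, rose by 0.69 ± 0.11 in the cytoplasm and by 0.73 ± 0.13 in whole cells (log2, SE; adjusted p 0.0121 and 0.0209 with limma). CIT, citron kinase of the cytokinetic furrow, fell by 1.65 in the cytoplasm and by 1.38 in whole cells on the log2 scale. CDC42BPA, a kinase related to ROCK, fell by 1.32 in the cytoplasm, and PLK1, a mitotic kinase, fell by 1.30 in whole cells. RHOA, which activates ROCK, is also on this list.

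Among the upstream kinase complex, relatives and targets of SIK3, 3 of 22 rose and 1 fell in the cytoplasm, and 1 of 25 rose in whole cells, where 39.0% and 27.0% of all genes passed in either direction. YWHAZ, a 14-3-3 protein that binds phosphorylated targets of the SIK kinases, rose by 1.01 in both fractions (log2; SE 0.11 in the cytoplasm and 0.15 in whole cells). STK11, the gene of LKB1, rose in the cytoplasm, from -0.69 and -1.14 to 0.18 and 0.40 (log2 abundance, SE of the difference 0.19, adjusted p 0.0129 with limma). HDAC5, a class IIa histone deacetylase, fell by 0.50 there on the log2 scale.

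Among 5-alpha reductases, sterol reductases and steroid dehydrogenases, 5 of 9 rose and 2 fell in the cytoplasm, with a median log2 change of 0.52, and 5 of 14 rose and 3 fell in whole cells, with a median of 0.19, where 39.0% and 27.0% of all genes passed in either direction. These groups of enzymes did not move one way. HSD17B4, which also acts in peroxisomal fatty acid oxidation, rose by 0.92 ± 0.11 and DHCR7, which catalyses the last step of cholesterol synthesis, rose by 0.69 ± 0.11 in the cytoplasm. HSD17B11 fell by 0.92 in the cytoplasm and by 0.93 in whole cells on the log2 scale. LBR, a sterol reductase of the inner nuclear membrane, rose by 1.39 ± 0.13 in whole cells (log2, SE; adjusted p 0.0082 with limma). Of the skipped-exon events of this list, 0 of 49 in whole cells and 0 of 25 in the cytoplasm passed the limma-moderated quasi-binomial test in either version, and 1 and 1 of them had an unadjusted p under 0.05 as designed. With limma on the log2 odds 0 passed.

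The exons of other genes closest to each lead exon over the 8 libraries were found by the root mean square difference of the inclusion level, among 9108 events averaging 50 reads or more per library in each fraction. For KTN1 exon 40 these were a 93-nt exon of LETM2 at a difference of 0.0687, a 72-nt exon of ZNF542 at 0.0731 and a 107-nt exon of EIF4A2 at 0.0796. For SIK3 exon 9 they included a 210-nt exon of BRD8 at 0.0934 and an 87-nt exon of ZNF185 at 0.0968. For PPP1R12A exon 13 they included a 192-nt exon of PTPMT1 at 0.0831 and a 129-nt exon of ASPH at 0.0929. The exon of SRD5A1 had no neighbour as close, the nearest being in FBXO38 at 0.182, HNRNPA2B1 at 0.188 and NUMB at 0.193. These exons were found by their values and are given as a description.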

How the data were processed

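RNA of U2OS cells was sequenced from whole cells and the cytoplasm, with 2 libraries per siRNA and fraction. Per the labels, mapping by the authors used STAR (version 2.5.2b) on hg19 and transcript counting used RSEM (version 1.2.25) on GENCODE 19. The deposited rMATS tables (version not given in the sources used here) hold, for each event, reads on target and junctions of the inclusion and skipping forms, not normalized, with both libraries of a group in 1 cell. They carry no library number, so first and second library mean the order in the cell. The deposited expression table gives the authors' mean of EBSeq-normalized counts per condition. The authors' p-values, FDR, fold changes and differences were not used, and neither were 20 columns of inclusion levels, which were recomputed.

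Each event type and fraction was tested by quasi-binomial regression of the share of inclusion reads, with Pearson dispersions moderated by limma (version 3.58.1, R 4.3.3; trend on mean reads, floor of 1) and Benjamini-Hochberg adjustment at 0.05. As designed, all events set the trend. In a version added after that test had given no call, events whose rarer form had 10 or more reads in each group set it. Abundance was tested with limma on log2(value + 0.01) after median-ratio scaling, for genes averaging 20 reads or more per library. The tests were checked on simulated data, on which the designed event test made no call and the added version did, so a lack of calls from the designed test carries little information. Both libraries of a group had the same reads of both forms in at most 0.747% of events averaging 50 reads or more, so no library was a copy of the other. The labels give no batch.

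The 4 genes and the gene lists were chosen with earlier results of these data known, which may include cytoplasmic ones, so the p-values are not independent of that choice. The lead exon was the whole-cell skipped exon with lower inclusion, an average of 20 reads or more and the smallest p. Other events named had passed the test or had groups that did not overlap, or complete the account of a gene. List genes named were up to 2 per direction with the smallest p in a fraction, and skipped exons of KLC1 and RTN3 were named after their values were seen. Some items that these rules select are not reported here. Annotation was GENCODE 44 lifted to GRCh37, in which 99.9% of the acceptors of the tabled exons ended in AG. Alternatives were the dispersion model, limma on log2 odds, read filters, scaling, pseudocount, effective length and leaving out each library. Versions of analysis tools were Python 3.11.15 and matplotlib 3.10.9.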

Additional observations from a re-analysis of the deposited data

Results flagged for a closer look

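The abundance of SIK3, summed over partly different events in each fraction, moved in opposite directions in the fractions. Both CHERP libraries lay below both EGFP libraries in whole cells, with a log2 difference of -0.48, and above them in the cytoplasm, with a difference of 0.73. The whole-cell difference did not pass the threshold (adjusted p 0.0795 with limma). Events found in both fractions did not all have fewer reads with CHERP siRNA in whole cells. Inclusion reads were 35 and 27 against 35 and 44 for the 3′ splice site choice of exon 24. They were 17 and 15 against 21 and 13 for that of exon 21. For exon 3 they were 44 and 68 against 41 and 39, and for exon 9 they were 62 and 111 against 31 and 31. The difference between the fractions was not tested, because their tables were made and scaled separately and hold partly different events of SIK3.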

How the results depend on the processing

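No paired analysis was possible because the cells of the deposited tables join both libraries of a group without replicate numbers. The quasi-binomial test as designed called 0 skipped-exon events in whole cells (3623 at an unadjusted p under 0.05) and 0 in the cytoplasm (732), and so 0 of the 4 genes' events. This held without a dispersion trend, without each library in turn, and with limma on log2 odds (5243 and 2625 at an unadjusted p under 0.05). With events of at least 10 reads on average, 796 events passed in whole cells, 8 of them in the 4 genes, and 20 in the cytoplasm, 0 of them in the 4 genes. The following were added after seeing the data. With the trend from events with 10 reads of the rarer form, 814 and 333 passed, 9 and 1 of them in the 4 genes, and with 1 read of it 926 and 220, again 9 and 1. With dispersions floored before moderation 666 and 60 passed, 8 and 0 of them in the 4 genes. KTN1 exon 40 in the cytoplasm, at a difference of -0.245, was past the threshold in the versions with 10 reads (adjusted p 0.000559 with limma moderation) and with 1 read (0.0026) of the rarer form, and not with floored dispersions (0.0908), with the filter on average reads (0.178), without a trend (0.63) or in limma on log2 odds (0.65). The other lead exons stayed on their side of the threshold and kept their direction in all settings tried, but their size moved. With reads not divided by effective length the differences were -0.156 for PPP1R12A (-0.321 with the division), -0.225 for SIK3 (-0.375) and -0.145 for SRD5A1 (-0.224), and without the second EGFP library that of SRD5A1 was -0.128. Leaving out 1 library gave KTN1 exon 40 differences from -0.315 to -0.175, where the lone library of a group is assumed to vary like the others.

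Abundance called 2611 genes in whole cells and 2842 in the cytoplasm, and with no filter on low reads 1611 and 1557. Leaving out 1 library left 543 to 2823 and 1313 to 1901 genes. The whole-cell log2 difference of PPP1R12A ranged from -0.82 to -0.63, and those of SIK3 from 0.67 to 0.79 and SRD5A1 from 0.30 to 1.09 in the cytoplasm. Without the events of the lead exon SRD5A1 was at 2.44 in whole cells and at 1.33 in the cytoplasm. Scaling by library totals moved the median of all genes from -0.01 to -0.11 in the cytoplasm, and no call of the 4 genes changed with it. The cause of these changes was not tested. The cytoplasmic values of the lead exons rest on 2 libraries per group and means of 14 to 81 reads, and how far depth limited the tests was not tested.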
